A study of Mus musculus with 6 samples.

Results

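The genes described here encode subunits of the mitochondrial respiratory chain, and their transcripts were compared between wild-type and E2A-deficient DN2 thymocytes. Members were the genes whose symbol in the array annotation begins as those of complex I (Ndufa, Ndufb, Ndufc, Ndufs or Ndufv with a number), complex II (Sdha to Sdhd), complex III (Uqcr) or complex IV (Cox4 to Cox8). The rule found 64 of the 18193 genes measured: 35 of complex I, 4 of complex II, 8 of complex III and 17 of complex IV. Each gene was read by 1 probe set, the brightest on average over the 6 arrays among those naming that gene alone. No filter on low values was applied, so all 64 entered the test. The 2 groups were 3 arrays of wild-type cells and 3 arrays of cells labelled E2A deficient, all of FVB background and all of DN2 cells sorted from the fetal thymus. At the DN2 stage, thymocytes without CD4 and CD8 commit to becoming T cells. E2A is the E protein transcription factor made from the gene Tcf3. Which allele removes E2A, in which cells, the fetal age and whether thymi were pooled are not given in the sources used here.

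The respiratory chain passes electrons from NADH (complex I) and succinate (complex II) through coenzyme Q to complex III, then through cytochrome c to complex IV, which reduces oxygen. Complexes I, III and IV pump protons across the inner mitochondrial membrane, and ATP synthase uses that gradient. Nearly all subunits are encoded in the nucleus, a few in the mitochondrial genome, and several complex IV subunits exist as isoforms of muscle, lung or testis. Early thymocytes divide quickly and draw on both glycolysis and respiration.

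Tcf3 had intensities of 477, 421 and 414 in wild-type and 236, 229 and 281 in E2A-deficient cells (log2 change -0.81, SE 0.0963, n = 3 per group, adjusted p = 0.00532 by limma). All 3 E2A-deficient arrays lay below all 3 wild-type arrays. Its adjusted p was 0.106 by limma when the 5'/3' ratio of the beta-actin controls entered as a covariate, the highest over 17 alternatives, whose lowest was 9.90e-04. The sources used here do not say which part of Tcf3 is removed, and a probe set outside it would check nothing. The medians of the arrays were 77.4 to 79.0, but the upper end of the scale differed: the 99th percentile of intensity was 2613, 2485 and 2190 on wild-type arrays 1, 2 and 3 and 2656, 2656 and 2740 on the E2A-deficient arrays. Wild-type array 3 thus had the lowest bright end, and most subunits are bright, with 57 of 64 above the median gene. That beta-actin ratio, a sign of RNA integrity, was 0.104, 0.162 and 0.0981 on the wild-type and 0.165, 0.160 and 0.149 on the E2A-deficient arrays. Xist, which is made in female cells, was at 3055, 4456 and 58.7 on the wild-type and 1901, 1247 and 2154 on the E2A-deficient arrays. Eif2s3y, a gene of the Y chromosome, was at 204, 58.0 and 343 on the wild-type and 230, 339 and 208 on the E2A-deficient arrays. Eif2s3y was thus low on wild-type array 2 and Xist on wild-type array 3, while the other arrays had signal of both. The DN2 markers Kit, Il2ra and Cd44 were measured on every array. Of the 10 measured early T-lineage markers 1 rose (Gata3) and 3 fell (Cd3e, Thy1 and Notch1). The median log2 change of the 10 was 0.03, and 6 were above 0. Their summed level was 6775 to 7498 in wild-type and 5239 to 6047 in E2A-deficient cells. Notch1 gave most of that difference, with a mean of 2419 in wild-type and 885 in E2A-deficient cells. Markers of other cells were mostly dim. Summed erythroid markers (4 genes) were 295 to 320 in wild-type and 315 to 385 in E2A-deficient cells, thymic epithelial markers (6 genes) 463 to 502 and 534 to 564, and neither list had a called gene. In the erythroid genes Epor and Klf1 and the epithelial gene Krt8 every E2A-deficient array lay above every wild-type array. Summed myeloid markers (7 genes) were 1294 to 1546 and 1408 to 1646, of which Mpo gave most and Lyz2 fell, and mast-cell markers (5 genes) 1288 to 1404 and 1174 to 1588, of which Cpa3 gave most. B-cell markers (5 genes) were 388 to 428 and 383 to 404, and Cd79b alone lay above the array medians, at 121 to 165. Later T-cell markers (5 genes) were 405 to 449 and 391 to 406. Of these Cd5 fell, while Ccr7 was higher without overlap but not called (log2 change 0.45, limma adjusted p = 0.0656). Mesenchymal or endothelial markers (7 genes, 454 to 494 and 487 to 490) complete the lists. The part of these differences in the results below was not tested. In sorted populations, fewer cells of a type and less RNA per cell cannot be told apart.

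Among the 64 subunits 1 rose, the complex III subunit gene Uqcrq, and 0 fell when E2A was deficient, by limma with p-values adjusted over all 18193 genes and a threshold of 0.05. Over all genes 3.46% were called, 2.4% higher and 1.06% lower, so 1 of 64 is near the background. At an unadjusted p under 0.05, 27 subunits were higher and 1 lower, beside 11.1% of all genes that were higher. The log2 change was above 0 in 54 of the 64, against 56.5% of all genes and 62.7% of the genes brighter than the median. The median change of the 64 was 0.20, beside 0.01 over all genes and 0.06 over the brighter genes. In 23 subunits every E2A-deficient array lay above every wild-type array, which is 35.9% of them, beside 13.2% of all genes and 19.4% of the brighter ones. In 2 subunits, Ndufb1 and Cox6a2, every E2A-deficient array lay below, beside 6.74% of all genes. The brighter genes are all those above the median gene, while many subunits lie near the top of the scale, where the arrays differed. That background is thus not matched to the subunits in brightness.

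**Figure D1:**
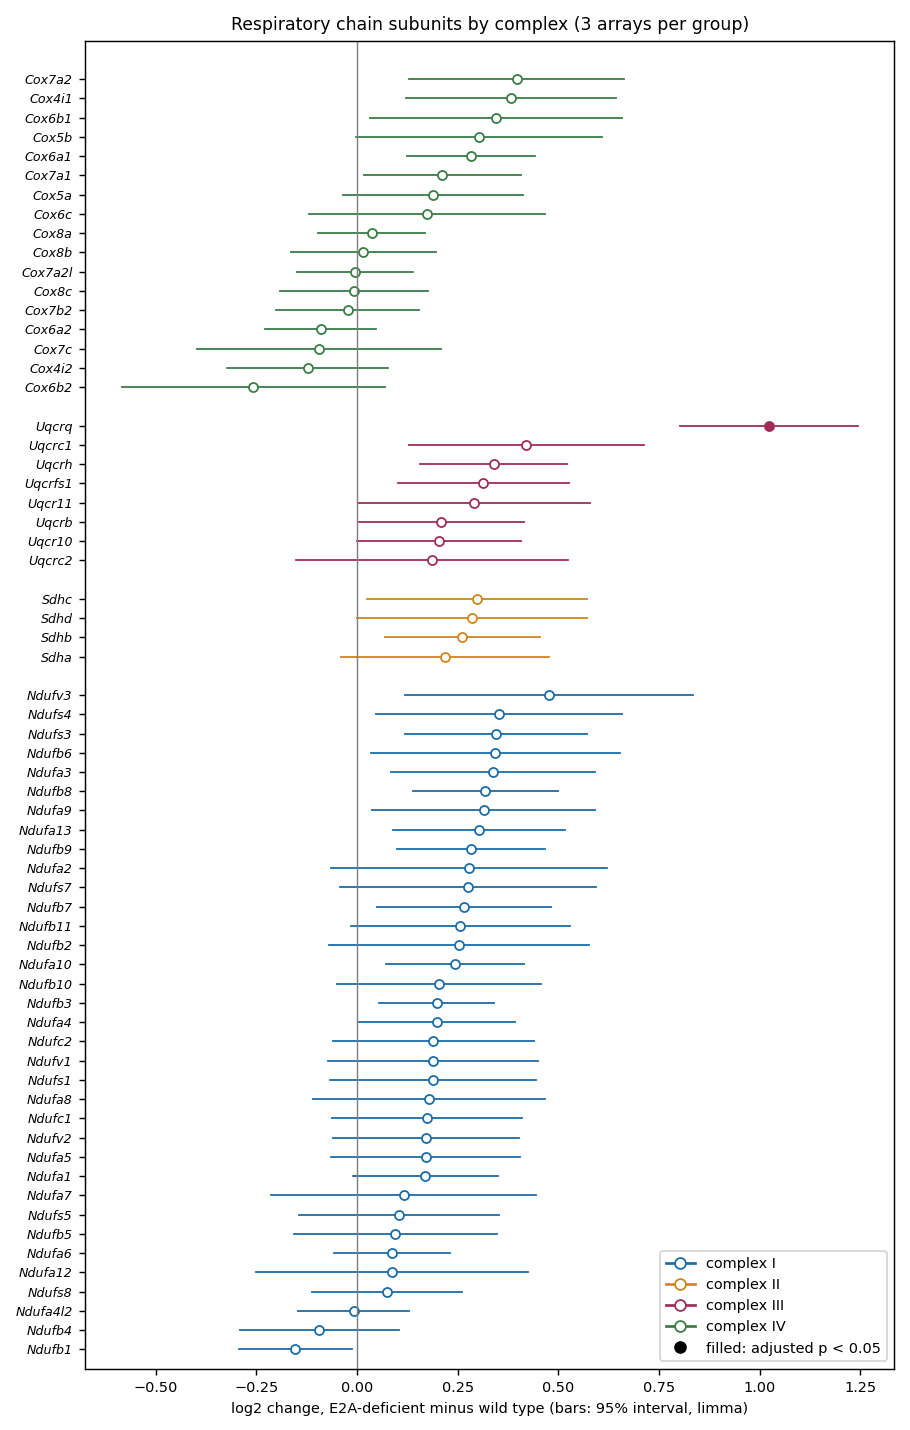
Log2 change, E2A-deficient minus wild type, of each of the 64 subunits on the horizontal axis, with its 95% interval from limma (3 arrays per group), coloured by complex. Uqcrq, filled, is the gene that passed the test, at 1.02, and 54 of the 64 points lie above 0.

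The size of the common offset depended on the scaling and on wild-type arrays 1 and 3. When the arrays were quantile normalized again, which gives all of them the same bright end, the median change of the subunits was 0.09, 48 of 64 were above 0, and Uqcrq remained the called subunit. The same step moved the calls over all genes from 437 higher and 193 lower to 363 higher and 257 lower. Without wild-type array 3 the median was 0.14 and 51 of 64 were above 0, and without wild-type array 1 it was 0.26 and 58 were. Leaving out any other single array gave medians from 0.19 to 0.24. With the beta-actin ratio in the model it was 0.18. Of the 64 subunits 46 had their lowest wild-type value on array 3, 10 on array 1 and 8 on array 2. Among the 57 brighter subunits the median SD within the wild-type arrays was 0.17 on the log2 scale and within the E2A-deficient arrays 0.08, beside 0.14 and 0.11 over all brighter genes.

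**Figure D2:**
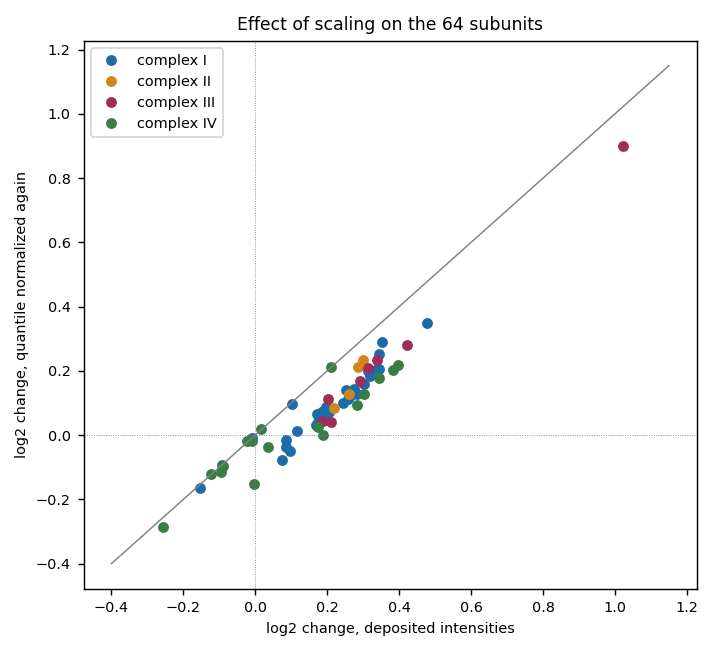
Log2 change of each subunit with the deposited intensities (horizontal) and after a further quantile normalization (vertical), coloured by complex, with the line of equality. Most points lie below the line, the median falls from 0.20 to 0.09, and Uqcrq stays apart at 0.90.

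Complex III had the one called subunit and the highest median of the 4 complexes, 0.30 over 8 genes, and all 8 were above 0. Uqcrq encodes a small subunit that binds ubiquinone beside cytochrome b. Its intensities were 1058, 908 and 861 in wild-type and 1773, 1915 and 2047 in E2A-deficient cells. The groups did not overlap, and the lowest E2A-deficient array was well above the highest wild-type array. The means were 942 ± 103 and 1912 ± 137 (SD, n = 3), a fold of 2.03. The log2 change was 1.02 (SE 0.0939, 95% interval 0.80 to 1.24, adjusted p = 0.00206 by limma), which ranked 66 of 18193 genes from the highest. Uqcrq passed in 16 of 17 alternative settings, among them each in which 1 array was left out.

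That reading rests on 1 of 4 probe sets. The one used carries the suffix (_s_at) of sets that can hybridise to several transcripts. The other 3 were dim. The brightest of them read 103, 105 and 110 in wild-type and 106, 115 and 104 in E2A-deficient cells, and its groups overlapped. Their log2 changes were 0.03, 0.11 and 0.03. Without sets of that kind Uqcrq was read by the brightest of these 3, and its change was 0.03. Its adjusted p by limma was then 0.926, and over the 17 alternatives it ran from 7.53e-05 to 0.926. With the mean of the 4 sets it was 0.30 and passed (limma adjusted p = 0.0186). Which transcripts the probes of each set match was not analysed here.

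**Figure D3:**
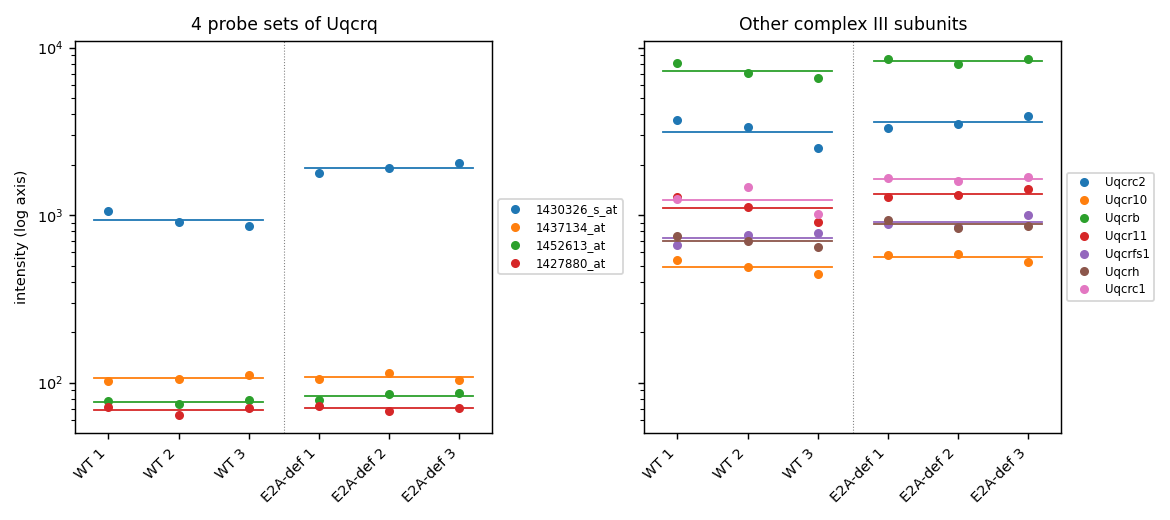
Intensity on a log axis for each of the 6 arrays (points) with geometric means per group (lines), for the 4 probe sets of Uqcrq on the left and the other 7 complex III subunits on the right. Only the brightest Uqcrq set separates the groups strongly, while its 3 other sets lie at or below 115 on all arrays.

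None of the other 7 complex III genes passed. Uqcrh, the hinge protein beside cytochrome c1, had intensities of 753, 699 and 642 against 938, 843 and 866, and the groups did not overlap. Its change was 0.34 (95% interval 0.16 to 0.52, limma adjusted p = 0.0704), and its other probe set gave 0.27. Uqcrh passed with the mean of its probe sets (0.0267) and without sets shared between transcripts (0.0493), as limma adjusted p-values whose highest was 0.439. The core protein gene Uqcrc1 had 1247, 1470 and 1018 against 1670, 1599 and 1678 (0.42, interval 0.13 to 0.71). Uqcrfs1, the Rieske iron-sulfur protein, had 666, 760 and 782 against 881, 855 and 1008 (0.31, interval 0.10 to 0.53). Both pairs of groups stayed apart, and in Uqcrfs1 the lowest array was wild-type array 1, not 3. The remaining 4 overlapped between the groups. The core protein gene Uqcrc2 had 3710, 3338 and 2506 against 3335, 3488 and 3931, a change of 0.19 with an interval from -0.15 to 0.52. Uqcrb, a small subunit, had 8134, 7056 and 6569 against 8505, 7965 and 8605 (0.21), the small subunit gene Uqcr10 had 536, 488 and 443 against 576, 589 and 522 (0.20), and Uqcr11 had 1290, 1124 and 913 against 1290, 1316 and 1428 (0.29).

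Complex II, succinate dehydrogenase, links the chain to the citric acid cycle. Its 4 genes did not pass and had a median of 0.27. The iron-sulfur subunit gene Sdhb had 1489, 1408 and 1263 in wild-type and 1568, 1634 and 1780 in E2A-deficient cells, without overlap, a change of 0.26 (95% interval 0.07 to 0.45, limma adjusted p = 0.164). The flavoprotein gene Sdha had 918, 1069 and 1165 against 1257, 1083 and 1324 (0.22), but another of its probe sets, nearly as bright, had 966, 909 and 894 against 814, 835 and 940 (-0.10). The direction of Sdha therefore differed between its probe sets. The membrane anchors Sdhc (230, 310 and 241 against 339, 307 and 306, a change of 0.30) and Sdhd (246, 303 and 308 against 345, 305 and 396, a change of 0.29) overlapped. The second probe set of Sdhc gave -0.03 and that of Sdhd 0.05. Sdha, Sdhc and Sdhd were at their lowest on wild-type array 1, and the median deviation of the complex II genes from their means over 6 arrays was -0.31 on wild-type array 1, -0.06 on array 2 and -0.14 on array 3.

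**Figure D4:**
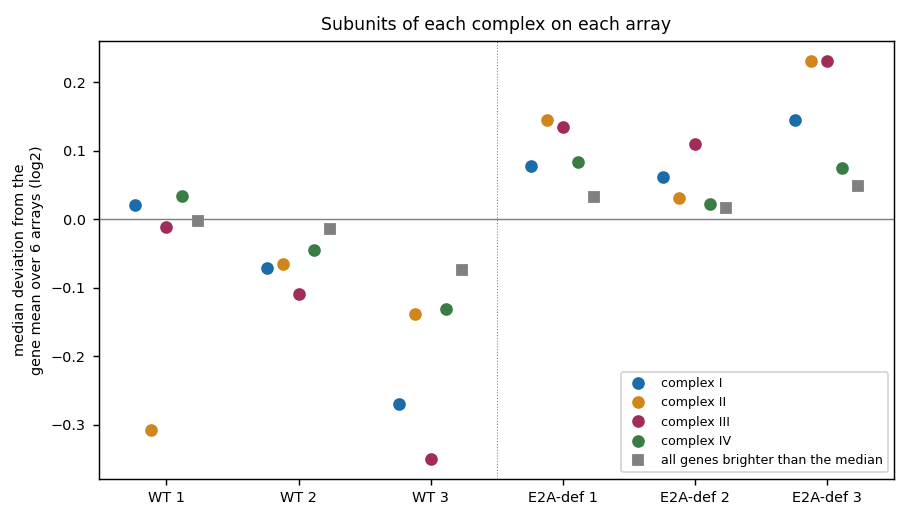
Median deviation of the subunits of each complex from their own mean over the 6 arrays (log2, vertical axis), for each array, with all genes brighter than the median as grey squares. Complexes I, III and IV are lowest on wild-type array 3 (-0.27, -0.35 and -0.13), complex II on wild-type array 1 (-0.31), and all 4 complexes lie above 0 on each E2A-deficient array.

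Complex I, the NADH dehydrogenase, had 35 members, of which 0 passed by limma. At an unadjusted p under 0.05, 13 were higher and 1 lower, beside 11.1% of all genes that were higher. The median change of complex I was 0.20, and 32 of the 35 were above 0, beside 56.5% of all genes. In 13 the E2A-deficient arrays all lay above the wild-type arrays, beside 13.2% of all genes and 19.4% of the brighter ones. The 6 measured core subunits, which carry the flavin and iron-sulfur clusters or the quinone site (Ndufs1, Ndufs3, Ndufs7, Ndufs8, Ndufv1 and Ndufv2), had a median of 0.19, and the other 29 members, the accessory subunits, one of 0.20. This division, and that of complex IV below, was made after the values were seen.

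The largest change in complex I was that of Ndufv3, an accessory subunit of the NADH-binding module, with 1552, 1226 and 988 in wild-type and 1613, 1707 and 1839 in E2A-deficient cells. The groups stayed apart by a narrow margin, because wild-type array 1 was high. The change was 0.48 (95% interval 0.12 to 0.83, limma adjusted p = 0.173). Ndufs4, needed for a stable NADH module, had 355, 373 and 262 against 426, 396 and 429, a change of 0.35. The core gene Ndufs3 had 516, 532 and 435 against 604, 593 and 684, also 0.35. The accessory genes Ndufb6 (2024, 1937 and 1453 against 2104, 2484 and 2224) and Ndufa3 (1675, 1562 and 1281 against 2017, 1913 and 1756) had log2 changes of 0.34 each. In each of these the lowest array was wild-type array 3, and the groups did not overlap. The dim probe sets of Ndufs4 gave 0.04 and -0.18, while its other brighter set gave 0.32.

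The brightest complex I probe sets belonged to accessory subunits. Ndufa1 had 3509, 3195 and 2954 against 3580, 3490 and 3770 (0.17), Ndufc2 had 3555, 3266 and 2656 against 3545, 3495 and 3689 (0.19), and Ndufb11 had 3374, 2945 and 2417 against 3501, 3321 and 3521 (0.26). Ndufa13, also called GRIM-19, had 2677, 2266 and 2134 against 2855, 2819 and 3019 (0.30). Ndufb9 had 2300, 2308 and 1995 against 2832, 2588 and 2597 (0.28). The last 2 genes had groups that did not overlap. Ndufa1 and Ndufb11 lie on the X chromosome, and both were at their lowest on wild-type array 3, which also had the lowest Xist. They shared this with most subunits, as 45 in all were at their lowest on that array. A link of these values to sex was not tested. Without wild-type array 1, 5 subunits passed in place of 1: Uqcrq, Ndufv3, Ndufa13, Ndufb7 and the complex IV gene Cox7a2 (limma adjusted p from 0.00230 to 0.0460). Ndufb1, weak at 123, 120 and 124 against 112, 103 and 114, was the one complex I gene with all E2A-deficient arrays below (-0.15, interval -0.29 to -0.01). The isoform gene Ndufa4l2 had 83.4 to 90.9 on all arrays, with a change of -0.01. Ndufa4, which by its symbol counts here but whose protein belongs to complex IV, had 1065, 1009 and 972 against 1297, 1080 and 1125 (0.20).

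Complex IV, cytochrome c oxidase, had 17 members, 0 of which passed by limma. At an unadjusted p under 0.05, 5 were higher, beside 11.1% of all genes. The median of complex IV was 0.04, and this low value came with a split. The 10 widely used subunits had a median of 0.24. The 7 isoforms of muscle, lung or testis, 4 of them dimmer than the median gene, had one of -0.02. After the further quantile normalization the former was 0.06 and the latter -0.02, and without wild-type array 3 they were 0.13 and -0.07.

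Among the widely used subunits, Cox7a2 had 4796, 4123 and 3498 in wild-type and 5202, 5285 and 5736 in E2A-deficient cells, a change of 0.40 (95% interval 0.13 to 0.66, limma adjusted p = 0.134). Cox4i1, a subunit that binds regulators of the oxidase, had 3453, 3706 and 2755 against 4091, 4259 and 4480 (0.38). Cox6b1 had 4614, 4197 and 3146 against 5021, 5119 and 4851 (0.34), and Cox6a1 had 6874, 6373 and 6014 against 8010, 7875 and 7528 (0.28, interval 0.12 to 0.44, limma adjusted p = 0.0797). In these 4 genes the groups did not overlap. Cox5b had 4450, 3733 and 3020 against 4623, 4440 and 4584 (0.30), and Cox5a had 7240, 6140 and 5615 against 6986, 7335 and 7207 (0.19). Both overlapped, through wild-type array 1. Cox5a changed sign after quantile normalization, to -0.0010.

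The other 4 widely used subunits had groups that overlapped. Cox6c had 3806, 3441 and 2850 against 3316, 3920 and 4123 (0.17), and Cox7c, weak here, had 170.5, 163 and 155 against 155, 182 and 125 (-0.09). Cox7a2l, which helps to join complexes III and IV in supercomplexes, had 2461, 2305 and 2350 against 2288, 2313 and 2494, a change of -0.0048 with an interval from -0.15 to 0.14. Its 2 other probe sets gave -0.05 and -0.02, and after the further quantile normalization its change was -0.15. Cox8a had 369, 344 and 356 against 373, 356 and 367 (0.04, interval -0.10 to 0.17), and after that step its change was -0.04. Of the isoforms, Cox6b2 had 145, 189 and 164 against 161, 141 and 115 (-0.26, interval -0.58 to 0.07), and Cox7a1 had 66.2, 70.2 and 65.3 against 77.3, 70.7 and 86.7 (0.21). Cox4i2, Cox6a2, Cox7b2, Cox8b and Cox8c had changes between -0.12 and 0.02.

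Of the 64 members 38 had more than 1 probe set, which gave 69 further readings. Of the 56 brighter ones among these 46 were above 0, with a median of 0.14, and of the 13 dim ones 6 were, with a median of -0.01. Fitted per probe set, 4 of the 133 sets of the subunits passed, all higher, beside 1.21% of all probe sets. They were the Uqcrq set and second sets of 3 other genes. The second set of Cox7a2 had 1503, 1474 and 1341 in wild-type and 2009, 1821 and 2031 in E2A-deficient cells (0.44, limma adjusted p = 0.0311). That of Cox6a1 had 842, 855 and 831 against 1053, 1060 and 1013 (0.31, 0.0352), and that of Ndufb9 had 413, 393 and 361 against 558, 482 and 557 (0.45, 0.0451). In these 3 genes the set used for the gene gave 0.40, 0.28 and 0.28 and did not pass. With the mean of all probe sets of a gene, 4 subunits passed, namely Uqcrq, Cox6a1, Cox7a2 and Uqcrh. Probe sets that name a copy as well were not used for the members. Of these, the set of Ndufs6 and Ndufs6b had 994, 984 and 790 against 1220, 1263 and 1234 (0.43, limma adjusted p = 0.0839), and the brighter set of Ndufa11 and Ndufa11b had 377, 345 and 283 against 433, 453 and 479 (0.45, 0.110). The sets shared by Ndufb4 and its copies gave 0.18 and 0.23, and that of Ndufs5 and its pseudogene 0.19. The brighter Ndufb4 set had 741, 824 and 649 against 821, 873 and 806, while the member Ndufb4 was read by a dim set of its own (63.7 to 76.9 on all arrays), with a change of -0.09.

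Other mitochondrial genes were read from lists of 212 genes outside the subunits, of which 9 rose and 1 fell, beside the 2.4% and 1.06% of all genes. Their medians moved with the scaling too. All 17 measured genes of ATP synthase, which makes ATP from the proton gradient, were above 0 with a median of 0.24, and after the further quantile normalization 14 were, with a median of 0.09. By limma 0 passed, while 12 were higher at an unadjusted p below 0.05, beside 11.1% of all genes. Atp5o had the smallest p (log2 change 0.34, limma adjusted p = 0.0800). Chain genes with other symbols gave 4 measured members. The electron carrier gene Cycs had 4942, 4724 and 4180 against 5283, 5353 and 5810 (0.25), the complex III gene Cyc1 had a change of 0.35 and the complex I gene Ndufab1 one of 0.29, and none passed. The mitochondrially encoded complex I gene ND5 had 3027, 3104 and 2265 against 2716, 2706 and 3042, a change of 0.02 with an interval from -0.27 to 0.32. Its groups overlapped, and its lowest array was again wild-type array 3.

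Of 46 measured assembly factors 1 rose, Cox19, a copper-handling factor for complex IV, from 353, 361 and 327 to 516, 464 and 454 (0.46, SE 0.0730, limma adjusted p = 0.0181), and the list had a median of 0.12. Of 76 mitochondrial ribosomal protein genes 5 rose and 0 fell with a median of 0.17, and after quantile normalization 2 passed and the median was 0.10. The 3 with the smallest p were Mrpl27 (0.52), Mrpl22 (0.41) and Mrpl49 (0.46), with adjusted p from 0.0156 to 0.0302 by limma. Of 12 citric acid cycle genes 2 rose: Dlst, with 418, 421 and 449 against 610, 579 and 638 (0.50, SE 0.0634, limma adjusted p = 0.00742), and Ogdh (0.42, 0.0254), both of the 2-oxoglutarate dehydrogenase complex. With the mean of probe sets these changes were 0.18 and 0.17 and did not pass. Of 16 genes of the mitochondrial membranes 1 rose, the ADP/ATP carrier gene Slc25a4 (0.48, limma adjusted p = 0.0490). Several of these calls were lost when a single array was left out. The call was lost in Ogdh when any array except wild-type array 3 was left out, in Slc25a4 any except wild-type array 1, and in Mrpl49 any except E2A-deficient array 1. It was lost in Cox19 without wild-type array 3 or E2A-deficient array 1 or 2, in Mrpl27 without E2A-deficient array 2 or 3, and in Mrpl22 without wild-type array 1 or 2 or E2A-deficient array 1 or 3. The adjusted p by limma in these cases was 0.0522 to 0.162, and the direction was the same. None of 12 genes of coenzyme Q synthesis or of 20 genes of mitochondrial genome upkeep and expression passed by limma, with a median change of 0.11 in each list. At an unadjusted p under 0.05, 3 and 5 were higher, beside 11.1% of all genes. The genes with the smallest p were Coq6 (log2 change 0.20) and the polymerase gene Polg (log2 change 0.38).

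Of 9 transcriptional regulators of mitochondrial genes 1 fell and 8 did not pass. The gene that fell was Ppargc1b, which encodes PGC-1 beta, a coactivator of nuclear genes for respiration. It had 267, 260 and 239 in wild-type and 133, 160 and 135 in E2A-deficient cells, without overlap, with a log2 change of -0.84 and an SE of 0.0882 (limma adjusted p = 0.00318). It passed in 16 of 17 alternatives. The exception was the model with the beta-actin ratio, where the adjusted p by limma was 0.0583. The lowest over the alternatives was 4.92e-04. With that ratio in the model 0 of the 212 genes passed. Without an E2A-deficient array between 3 and 5 of them passed, and without wild-type array 3, 5 did.

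**Figure D5:**
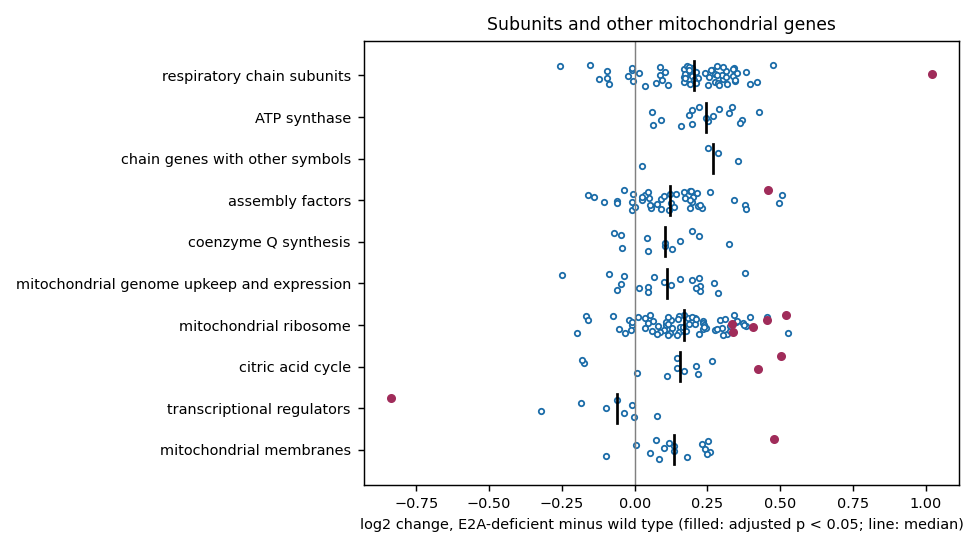
Log2 change, E2A-deficient minus wild type (horizontal axis), of every measured gene of the subunits and of 9 further lists, with filled points for genes that passed limma at an adjusted p under 0.05 and a line at each median. The subunits have a median of 0.20 with Uqcrq at 1.02, and in the list of regulators Ppargc1b lies at -0.84.

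Promoter sequences are shown for the subunits with the smallest p-values that have a single start in the RefSeq promoter table (assembly GRCm38.p6), to let the start regions of genes with similar changes be compared. Each runs 5′ to 3′ from 250 bases before to 50 after the start. Capitals mark matches on either strand to 5 motifs: that of NRF1 (GCGCA, any base, then GCGC), CCGGAAGT of ETS factors such as GABPA, AAGATGGC of YY1, and the E-boxes CAGCTG and CAGGTG that E proteins such as E2A bind.
Uqcrh (GRCm38.p6, chr4:116075021-116075320, minus strand): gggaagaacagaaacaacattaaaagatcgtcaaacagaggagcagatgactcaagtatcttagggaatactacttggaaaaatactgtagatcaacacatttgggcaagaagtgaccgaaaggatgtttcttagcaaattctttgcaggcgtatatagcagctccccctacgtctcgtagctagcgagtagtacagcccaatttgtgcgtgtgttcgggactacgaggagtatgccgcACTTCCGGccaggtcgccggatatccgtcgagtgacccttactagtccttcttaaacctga
Ndufb8 (GRCm38.p6, chr19:44555393-44555692, minus strand): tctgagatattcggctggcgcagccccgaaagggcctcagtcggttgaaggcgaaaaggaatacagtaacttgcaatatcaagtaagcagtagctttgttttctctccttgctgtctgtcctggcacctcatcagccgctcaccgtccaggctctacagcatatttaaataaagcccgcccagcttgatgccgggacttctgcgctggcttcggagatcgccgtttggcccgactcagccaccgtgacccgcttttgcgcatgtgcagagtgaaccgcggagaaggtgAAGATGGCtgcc
Cox6a1 (GRCm38.p6, chr5:115348909-115349208, minus strand): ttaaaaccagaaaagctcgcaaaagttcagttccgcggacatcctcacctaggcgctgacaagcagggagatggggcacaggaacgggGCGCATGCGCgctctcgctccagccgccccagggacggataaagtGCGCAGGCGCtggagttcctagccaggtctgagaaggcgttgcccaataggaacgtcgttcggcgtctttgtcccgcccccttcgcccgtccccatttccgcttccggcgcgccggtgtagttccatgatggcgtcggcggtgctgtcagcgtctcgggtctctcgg
Ndufs3 (GRCm38.p6, chr2:90904672-90904971, minus strand): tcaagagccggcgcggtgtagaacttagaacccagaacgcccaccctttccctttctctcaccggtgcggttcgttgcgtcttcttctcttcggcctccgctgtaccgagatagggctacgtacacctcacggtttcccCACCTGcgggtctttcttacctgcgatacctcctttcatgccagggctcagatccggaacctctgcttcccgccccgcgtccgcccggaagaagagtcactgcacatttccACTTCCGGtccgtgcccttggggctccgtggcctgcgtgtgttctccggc
The promoter of Uqcrh held an ETS match, that of Ndufb8 a YY1 match, that of Cox6a1 2 NRF1 matches, and that of Ndufs3 an E-box and an ETS match. Ndufb8, an accessory subunit of complex I, had 1546, 1613 and 1359 in wild-type and 1825, 1934 and 1863 in E2A-deficient cells (0.32, limma adjusted p = 0.0797). Uqcrq, the called subunit, had no entry in the promoter table, and none of the genes shown passed the main test. Of the 64 subunits 51 had entries in the table, with 53 promoters. The NRF1 motif was in 18.9% of these and in 4.6% of all 32851 promoters, the ETS motif in 7.55% and 3.89%, and the YY1 motif in 11.3% and 2.75%. The E-box CAGCTG was in 9.43% of the subunit promoters and 16.3% of all, and CAGGTG in 18.9% and 20.2%. A match is a description of letters in this window and was not tied to any change in level.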

How the data were processed

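Total RNA of 6 sorted DN2 samples was amplified, biotin labelled and hybridised to Affymetrix mouse arrays, per the labels' protocols. The deposited values are intensities, 1 per probe set and array, on a linear scale between 41.4 and 20196. RMA, a method of background correction, quantile normalization and probe summary, is the tool named in the submitters' processing notes. Its version, the return to the linear scale and any filter are not given in the sources used here. The upper percentiles of the deposited arrays differ, so their distributions are not identical. The repeated amplification reads mainly 3' ends, and the lower bound of the values compresses changes of dim genes.

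The 64 control probe sets were left out, which left 45037. The array annotation named 1 gene for 34945, several for 932 and none for 9160, and all 64 subunits matched RefSeq by Entrez identifier. Changes are the E2A-deficient mean minus the wild-type mean of log2(intensity + 1). They were tested over all genes with lmFit and eBayes of limma 3.58.1 in R 4.3.3, on both sides, with a threshold of 0.05 after Benjamini-Hochberg adjustment. The steps were tested on 10 simulated data sets with independent noise, in which 200 of 18193 genes were changed. Of the genes given a log2 change of 0.25 in them 4.4% were called, at 0.5 52.6% and at 1 90.4%. Changes as small as the median of the subunits were thus seldom called gene by gene in the simulations. In the data 630 genes were called, so the adjustment was less strict there and these shares may be too low. Members, lists and tests were chosen with earlier results of these data known. Genes named are called subunits, all of complexes II and III, the 5 largest changes and 5 brightest of complexes I and IV, up to 3 called genes of each list or else the one with the smallest p, and Tcf3. A few more were named after their values were seen. Groups came from the genotype label. Nothing says that replicates came from separate animals, so p-values measure the spread between these samples, and the number of arrays limits the precision. Correlations between arrays were 0.984 to 0.990 within groups. Alternatives were 2 normalizations, 2 pseudocounts (none and 16), a brightness filter, 2 treatments of probe sets, 2 variance settings, a replicate block, the beta-actin ratio and each array left out. Figures used matplotlib 3.10.9 (Python 3.11.15).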

Additional observations from a re-analysis of the deposited data

How the results depend on the processing

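The number of subunits called was 1 in the main test and 4 with the mean of probe sets. It ranged from 1 to 5 when 1 array was left out, the highest without wild-type array 1, and was 1 in the other settings. That 1 was Uqcrq, except without probe sets shared between transcripts, where it was Uqcrh. The median change of the subunits moved from 0.20 to 0.086 after quantile normalization, and that of complex I from 0.20 to 0.076. That of complex II moved from 0.27 to 0.17 and that of complex III from 0.30 to 0.19. Under this normalization each shift exceeded the standard error of that median change between replicates (0.083, 0.090, 0.092 and 0.107 in that order). That of complex IV was -0.0010 in this setting and 0.17 among only genes brighter than the median, where 4 dim isoforms drop out. That of complex II was 0.15 with the mean of probe sets. After quantile normalization 6 subunits turned from above to below 0: Cox5a (-0.0010), Cox8a (-0.04), Ndufa12 (-0.04), Ndufa6 (-0.02), Ndufb5 (-0.05) and Ndufs8 (-0.08). Sdha reversed with the mean of probe sets (-0.029) and without shared probe sets (-0.10). The calls among the 212 other mitochondrial genes, 10 in the main test, became 6 with the replicate number as a block, 0 with beta-actin as a covariate and 3 to 8 with 1 array left out. With the block 1 subunit was called. Correlations of deviations between arrays of the same number were 0.02, 0.02 and -0.04. No pairing by number was seen, but such values cannot exclude one. Over all genes 630 were called in the main test, 459 with the block, 123 with the covariate and 320 to 534 with 1 array left out. The causes were not tested, except that the further quantile normalization equalises the bright end by construction.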
